A study of Rattus norvegicus with 6 samples.

Results

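Genes that encode the targets of drugs for pulmonary hypertension (PH) were followed in the right ventricle (RV) of SuHx and control rats. The 10 genes were taken by name from the 12958 named genes of the expression matrix. They were the endothelin genes Edn1, Ece1, Ednra and Ednrb, the nitric oxide genes Nos3, Gucy1a3, Gucy1b3 and Pde5a, and the prostacyclin genes Ptgis and Ptgir. All of them had a row in the matrix, and all had a mean of at least 10 normalised counts over the 6 libraries, which was the filter for testing. RNA sequencing covered 3 RV libraries of male Sprague-Dawley rats in the SuHx model at 8 weeks, described as maladaptive or decompensated, and 3 RV libraries of healthy male Sprague-Dawley rats at day 0. SuHx rats were injected with SU5416, an inhibitor of the receptors of vascular endothelial growth factor, kept in hypoxia and then returned to normoxia. Since no control of the later time is among these libraries, the parts of age, growth, SU5416, hypoxia and pressure load in any difference given here cannot be told apart. Letters A to C are used for SuHx, since the link from library to numbered rat is missing in their labels, and the controls carry the numbers 1 to 3. Whether each library stands for a separate rat is not stated, and the p-values therefore rest on library-to-library spread alone, some of which may be technical.

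The 3 pathways set the tone of the pulmonary arteries, and each has a class of drugs directed at it. Endothelin is cut from its precursor by endothelin converting enzyme and acts through a type A receptor, which drives contraction and growth in smooth muscle and heart muscle, and a type B receptor, which on endothelium clears the peptide and releases nitric oxide and prostacyclin. Nitric oxide from the endothelial synthase activates soluble guanylate cyclase, a dimer of an alpha and a beta subunit, and the cGMP it forms is broken down by phosphodiesterases. Prostacyclin is made from prostaglandin H by prostacyclin synthase and signals through its own receptor to cAMP. Endothelin receptor antagonists, phosphodiesterase inhibitors, cyclase stimulators and prostacyclin analogues act on these proteins in patients, and the same genes are transcribed in the ventricle that the drugs also reach.

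The libraries differed in ways that could bear on any member. Normalised counts summed to between 12754296 and 18249330 in SuHx and between 11607609 and 12393415 in control, and a single read was worth about 0.774 to 0.954 normalised counts in SuHx and 0.994 to 1.12 in control. Of 6 markers of atrial muscle, 5 had a row, and these summed to between 15530 and 17549 normalised counts in SuHx and to 50544, 72.9 and 84.3 in controls 1 to 3. Nearly all of the SuHx sum was Nppa, the atrial natriuretic peptide gene, which loaded ventricles are also known to express, with 15462, 15802 and 17508 normalised counts in SuHx A to C, against 36639, 57.3 and 43.1 in controls 1 to 3. The other atrial markers were each at no more than 58.1 normalised counts in any SuHx library. The atrial ligand gene Bmp10 had 2363 normalised counts in control 1 and was listed at 0 elsewhere, and Myl7, an atrial myosin light chain, was at 1353 normalised counts in control 1 and at most 6.90 in any other library. Long transcripts set against ribosomal protein genes, used as a sign of RNA quality, stood at -0.36, 0.60 and 1.02 log2 units over SuHx A to C, with -0.32, -0.22 and -0.73 in controls 1 to 3, relative to the mean of all libraries, and of 9 long transcripts tested 1 passed limma (Utrn, higher), while 6 were higher and 0 lower by unadjusted p (under 0.05) and 5 had separate groups. Of these long transcripts, Birc6 was listed at 0 in SuHx A, which can be a failed estimate. It had 62.7 and 215 normalised counts in SuHx B and C, with 170, 160 and 167 in controls 1 to 3. The comparison with ribosomal protein genes was not repeated without Birc6. The share of mitochondrial transcripts was 50.9% to 62.2% in SuHx and 47.8% to 51.9% in control. Of 9 markers of heart muscle cells, 8 had a row and were abundant in every library, with Tnnt2, the cardiac troponin T gene, between 83414 and 97080 normalised counts in SuHx and between 73488 and 100205 in control. Of these 8 markers 1 passed limma, Myh6, a cardiac myosin heavy chain, which was lower in SuHx, while by unadjusted p (under 0.05) 1 was higher and 2 were lower.

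In the SuHx RV the type B endothelin receptor gene was higher and the alpha subunit gene of soluble guanylate cyclase was lower, and the other 8 genes did not pass the test. Each of the 2 passed in only 8 of 17 alternatives, and in 1 of 6 fits with a single library left out. Ednrb had a fold of 3.13 (95% interval 2.0 to 4.89) and Gucy1a3 a fold of 0.568 (95% interval 0.442 to 0.728), from the log2 scale of (normalised count + 1). Thus 1 of 10 members was higher and 1 of 10 lower in limma (adjusted p under 0.05), where 2.22% of all 10725 genes tested passed, 1.55% as higher and 0.671% as lower. At an unadjusted p under 0.05 there were 3 members, 2 of them higher and 1 lower, against 17.2% of all genes (9.61% higher and 7.59% lower). The SuHx libraries lay entirely above the controls for 2 members and entirely below for 1, and the groups overlapped for 7, whereas separate groups were seen in 24.6% of all genes (12.9% with SuHx higher and 11.6% with SuHx lower). The median log2 fold change was 0.23 over the members and 0.0095 over all genes tested. In bulk tissue, fewer cells of a type and less RNA per cell cannot be told apart.

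**Figure D1:**
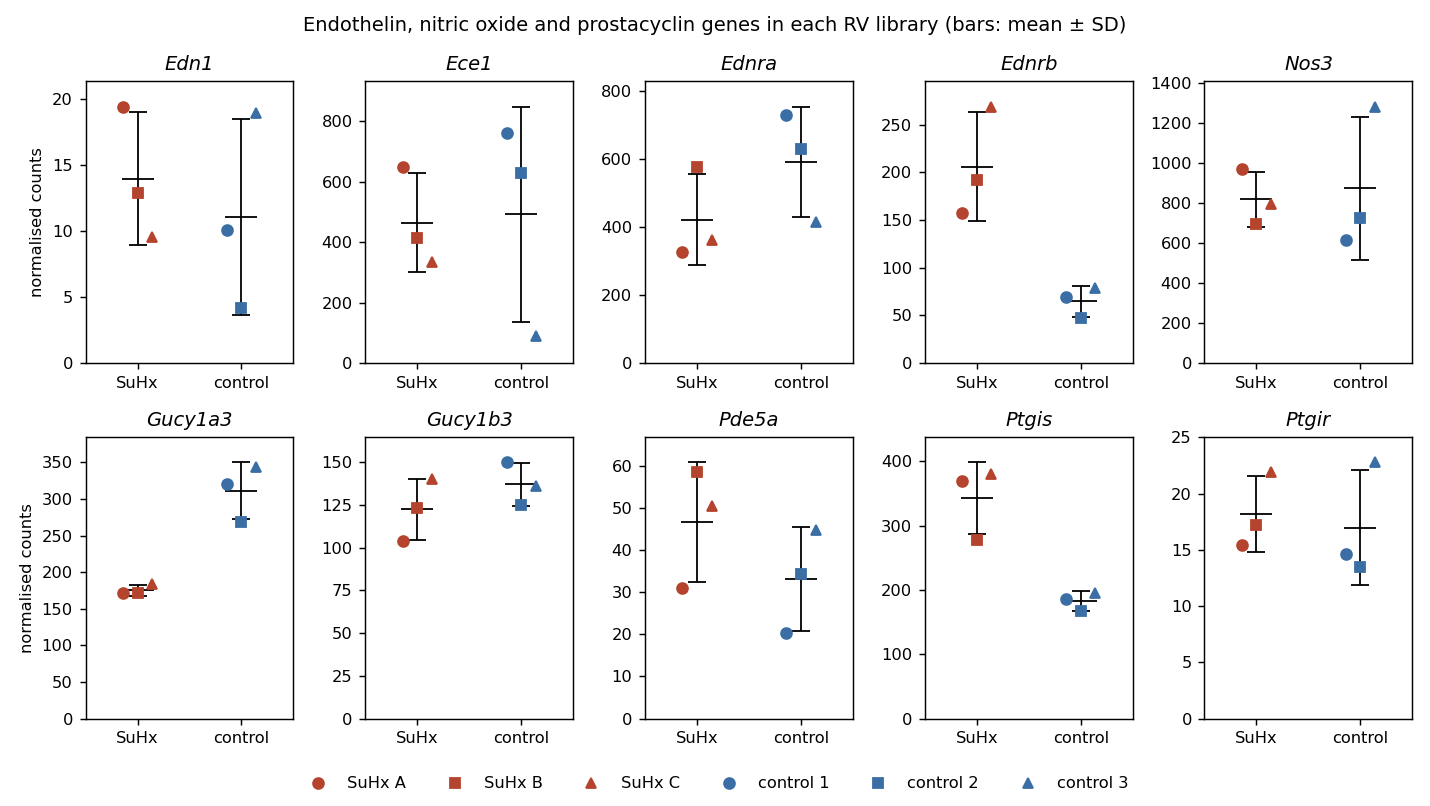
Normalised counts (vertical axis, from 0) of each of the 10 genes in 3 SuHx and 3 control RV libraries, with a point per library and bars for the mean ± SD. The groups are separate for Ednrb, Gucy1a3 and Ptgis and overlap for the other 7 genes.

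Ednrb encodes the type B receptor, which in vessels is best known on endothelium. It had 157, 192 and 269 normalised counts in SuHx A to C, against 69.5, 46.9 and 78.6 in controls 1 to 3. The lowest SuHx library thus lay well above the highest control. Means were 206.0 ± 57.2 for SuHx and 64.98 ± 16.3 for control (SD, n = 3 each), and the log2 fold change was 1.65 (SE 0.275, limma adjusted p = 0.0328; two-sided exact permutation p = 0.1, the smallest that 3 against 3 allow). Among all genes tested, 97.4% had a lower log2 fold change than Ednrb. The direction was the same in all 17 alternatives, with log2 fold changes between 1.33 and 2.08, but the test was passed in only 8 of them (adjusted p between 0.026 and 0.144 from limma). Ednrb did not pass without SuHx A (adjusted p = 0.0795), SuHx B (adjusted p = 0.108), SuHx C (adjusted p = 0.144), control 1 (adjusted p = 0.067) or control 2 (adjusted p = 0.0768), and passed without control 3 (adjusted p = 0.026, all from limma).

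Ednra encodes the type A receptor, the target of ambrisentan and, together with the type B receptor, of bosentan and macitentan. It had 327, 577 and 363 normalised counts in SuHx A to C, against 732, 630 and 414 in controls 1 to 3. SuHx B lay among the controls and control 3 among the SuHx libraries. With a mean of 422.4 ± 135 for SuHx and 592.1 ± 163 for control (SD, n = 3 each), the log2 fold change was -0.49 (SE 0.285, limma adjusted p = 0.428), with a 95% interval of -1.16 to 0.18, and it was negative in all 17 alternatives. Since both receptors are read in the same library, their ratio depends little on how libraries were scaled. The log2 ratio of Ednra to Ednrb was 1.05, 1.58 and 0.43 over SuHx A to C, with 3.38, 3.72 and 2.38 in controls 1 to 3. Every SuHx library had a lower ratio than every control, by 2.14 log2 units between the means of 1.02 ± 0.575 for SuHx and 3.16 ± 0.70 for control (SD, n = 3 each, two-sided exact permutation p = 0.1, the minimum for these numbers, adjusted p = 0.17 over 5 ratios). Leaving out each library in turn gave differences of -2.53 to -1.84.

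The 250 bases before the start of each receptor gene, from RefSeq on the rat assembly GRCr8, are shown because the pair differed in the libraries. Capitals mark a match to a searched motif.
Ednrb promoter, chr15:87086766-87087015, minus strand: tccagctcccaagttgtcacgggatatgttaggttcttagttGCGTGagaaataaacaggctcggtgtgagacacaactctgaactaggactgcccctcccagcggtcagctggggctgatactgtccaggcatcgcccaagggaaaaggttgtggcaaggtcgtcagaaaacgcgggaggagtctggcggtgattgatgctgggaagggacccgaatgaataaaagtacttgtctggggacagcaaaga
Ednra promoter, chr19:47137674-47137923, plus strand: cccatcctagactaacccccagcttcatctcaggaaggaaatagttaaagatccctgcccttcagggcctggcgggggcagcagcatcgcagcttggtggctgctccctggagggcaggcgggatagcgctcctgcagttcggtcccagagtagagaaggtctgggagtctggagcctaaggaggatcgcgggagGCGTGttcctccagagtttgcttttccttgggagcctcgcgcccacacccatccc
Motifs were searched on both strands. They were ACGTG, a core of hypoxia response elements, and GCGTG, which such elements can also hold and the aryl hydrocarbon receptor binds. The others were TGANTCA, bound by AP-1, GATAAG, bound by GATA factors, and the CArG box of serum response factor. Each receptor window held 1 match, to GCGTG on the coding strand, which began 208 bases before the start of Ednrb and 55 bases before that of Ednra, and no matches overlapped. Among 27457 such windows of rat genes, 27.2% held GCGTG, 16.9% ACGTG, 6.36% TGANTCA, 6.07% GATAAG and 1.5% a CArG box, so the letters they share are common.

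Edn1 encodes the precursor of the peptide, and it was read at low depth, from about 4 to 25 reads per library. It had 19.4, 12.9 and 9.54 normalised counts in SuHx A to C, against 10.1, 4.17 and 18.9 in controls 1 to 3. The groups overlapped, with control 3 near the highest SuHx library, and the log2 fold change was 0.46 (SE 0.63, limma adjusted p = 0.746). Its 95% interval of -1.01 to 1.94 corresponds to folds of 0.497 to 3.83, and without control 2 the log2 fold change was -0.043. Ece1 encodes the main converting enzyme. It had 649, 412 and 333 normalised counts in SuHx A to C, against 761, 627 and 89.3 in controls 1 to 3. Control 3 held the lowest value by far, and the sign of the log2 difference rested on it. Means were 464.5 ± 165 for SuHx and 492.3 ± 355 for control (SD, n = 3 each). On the count scale SuHx was thus slightly lower even with all libraries. The log2 fold change was 0.35 (SE 0.76, limma adjusted p = 0.85) with all libraries and -0.63 without control 3 (limma adjusted p = 0.273). Control 3 was also the library in which long transcripts were lowest against ribosomal protein genes, whose part in this value was not tested.

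Nos3 encodes the endothelial nitric oxide synthase, and it differed more between controls than between groups. It had 967, 692 and 792 normalised counts in SuHx A to C, against 614, 723 and 1280 in controls 1 to 3. Means were 817.3 ± 139 for SuHx and 872.2 ± 357 for control (SD, n = 3 each), and the log2 fold change was -0.033 (SE 0.28, limma adjusted p = 0.964) with a 95% interval of -0.70 to 0.63. Without control 3, the log2 fold change was 0.28 (limma adjusted p = 0.41). Of 12 endothelial markers, 11 had a row, and their sum was also highest in control 3, at 15116 normalised counts, where SuHx A to C had 11313, 12050 and 14229 and the other controls 10047 and 9641. None of the 11 passed limma in either direction, with 1 higher and 0 lower by unadjusted p (under 0.05). Set against the mean log2 value of these markers, Nos3 lay at 0.42, 0.03 and -0.12 over SuHx A to C, with 0.03, 0.17 and 0.24 in controls 1 to 3. On this scale control 3 was still the highest control but lay within the range of SuHx, where SuHx A was highest. The groups differed by -0.038 (two-sided exact permutation p = 0.9). The part of endothelial content in the Nos3 value of control 3 was not tested.

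Soluble guanylate cyclase, the receptor for nitric oxide and the target of riociguat, needs both subunits. The gene of the alpha subunit, Gucy1a3 (Gucy1a1 in current rat nomenclature), had 171, 171 and 184 normalised counts in SuHx A to C, against 321, 269 and 344 in controls 1 to 3. The SuHx libraries were close to each other, with a coefficient of variation of 4.24%, and all lay below the controls, where it was 12.4%. Means were 175.5 ± 7.43 for SuHx and 311.4 ± 38.7 for control (SD, n = 3 each), and the log2 fold change was -0.82 (SE 0.15, limma adjusted p = 0.0455; two-sided exact permutation p = 0.1, the minimum for these numbers). It was negative in all 17 alternatives and passed in 8 of them, with log2 fold changes of -1.14 to -0.61 (adjusted p between 0.0367 and 0.226 from limma). Gucy1a3 did not pass without SuHx A (adjusted p = 0.156), SuHx B (adjusted p = 0.162), SuHx C (adjusted p = 0.169), control 1 (adjusted p = 0.123) or control 2 (adjusted p = 0.0718), and passed without control 3 (adjusted p = 0.046, all from limma).

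The gene of the beta subunit, Gucy1b3 (now Gucy1b1), had 104, 123 and 140 normalised counts in SuHx A to C, against 150, 125 and 136 in controls 1 to 3. SuHx C lay within the range of the controls, and the log2 fold change was -0.17 (SE 0.18, limma adjusted p = 0.67), with a 95% interval of -0.59 to 0.25. The log2 ratio of alpha to beta subunit was 0.71, 0.47 and 0.39 over SuHx A to C, with 1.09, 1.1 and 1.33 in controls 1 to 3. It was lower in each SuHx library than in any control, with a difference of -0.65 between the means of 0.53 ± 0.17 for SuHx and 1.17 ± 0.14 for control (SD, n = 3 each, two-sided exact permutation p = 0.1, the minimum for these numbers, adjusted p = 0.17 over 5 ratios). Leaving out each library in turn gave differences of -0.74 to -0.57. Gucy1a2, which encodes an alternative alpha subunit, was under the filter, at 4.64 to 12.4 normalised counts in SuHx and 5.61 to 6.25 in control.

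The windows before the 2 subunit genes, which lie on the same strand of rat chromosome 2, are given for comparison, again from RefSeq on GRCr8.
Gucy1a3 promoter, chr2:169779624-169779873, minus strand: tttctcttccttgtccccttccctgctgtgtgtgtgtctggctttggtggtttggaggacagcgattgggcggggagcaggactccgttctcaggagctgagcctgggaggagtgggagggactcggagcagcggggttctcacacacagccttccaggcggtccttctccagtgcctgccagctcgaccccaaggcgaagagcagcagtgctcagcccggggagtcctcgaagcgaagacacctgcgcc
Gucy1b3 promoter, chr2:169696988-169697237, minus strand: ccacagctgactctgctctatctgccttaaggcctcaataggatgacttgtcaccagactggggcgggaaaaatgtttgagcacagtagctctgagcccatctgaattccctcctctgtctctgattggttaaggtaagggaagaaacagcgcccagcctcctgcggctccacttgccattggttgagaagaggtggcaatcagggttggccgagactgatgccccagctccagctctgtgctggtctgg
Neither window held a match to any of the searched motifs, which says only that these letters are not in them. The base composition was 63.2% G and C for Gucy1a3 and 54.8% for Gucy1b3, against a median of 52.0% over all windows.

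**Figure D2:**
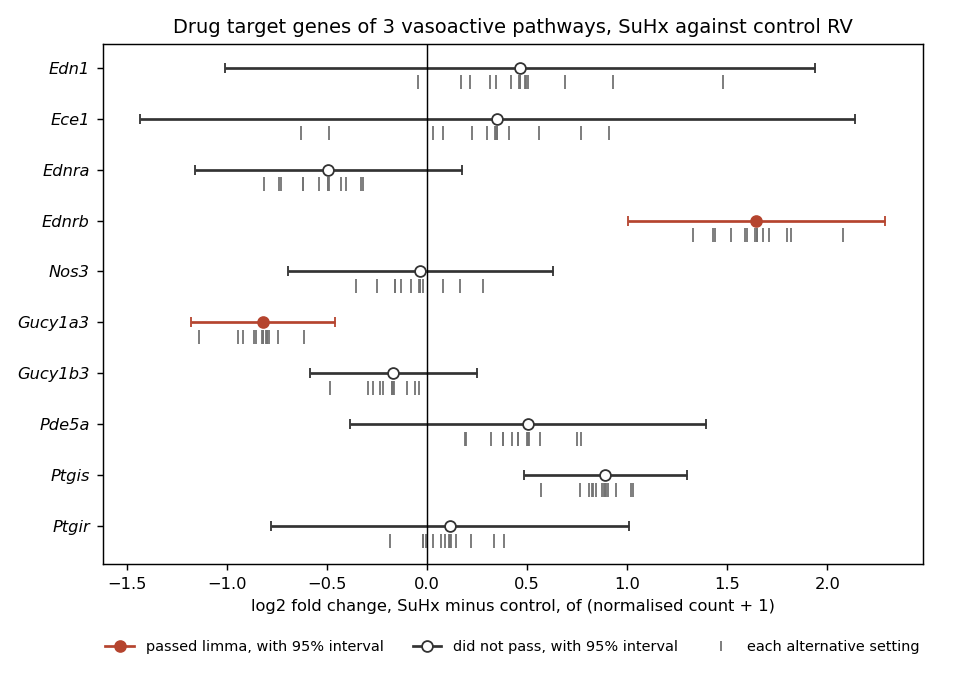
Log2 fold change of (normalised count + 1), SuHx minus control, of each gene (horizontal axis) from limma, with the 95% interval as a bar and each alternative setting as a tick under it. Filled points passed an adjusted p under 0.05, and the ticks lie on both sides of 0 for Edn1, Ece1, Nos3 and Ptgir.

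Pde5a encodes the phosphodiesterase that sildenafil and tadalafil inhibit, and it was read at about 18 to 68 reads per library. It had 30.9, 58.5 and 50.5 normalised counts in SuHx A to C, against 20.2, 34.4 and 44.7 in controls 1 to 3. SuHx A lay within the range of the controls, and the log2 fold change of 0.50 (SE 0.38, limma adjusted p = 0.544) had a 95% interval of -0.39 to 1.39. Set against the mean of both cyclase subunits in the same library, Pde5a lay at -2.08, -1.3 and -1.65 log2 units over SuHx A to C, with -3.38, -2.38 and -2.25 in controls 1 to 3. On this scale the groups did not overlap, with a difference of 1.00 (two-sided exact permutation p = 0.1, the minimum for these numbers, adjusted p = 0.17 over 5 ratios) that was 0.64 to 1.21 with single libraries left out. SuHx A and control 3 were separated by less than the distance between control 1 and control 2.

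Ptgis encodes prostacyclin synthase. It had 369, 278 and 380 normalised counts in SuHx A to C, against 186, 167 and 196 in controls 1 to 3. Each SuHx library was above each control, but the adjusted p was just over the threshold. Means were 342.6 ± 56.0 for SuHx and 182.9 ± 15.0 for control (SD, n = 3 each), and the log2 fold change was 0.89 (SE 0.17, limma adjusted p = 0.0517; two-sided exact permutation p = 0.1, the minimum for these numbers), with a 95% interval of 0.48 to 1.30. Ptgis passed in 3 of 17 alternatives, with the filter raised to 50 (adjusted p = 0.0439), under robust moderation (adjusted p = 0.0473) and without control 3 (adjusted p = 0.0413, all from limma). At equal library totals, where the median of all genes moved to -0.31, it was 0.57 (limma adjusted p = 0.271). Tbxas1, which encodes thromboxane synthase and draws on the same substrate, had 12.4, 22.4 and 34.3 normalised counts in SuHx A to C, against 17.9, 12.5 and 11.9 in controls 1 to 3. The log2 ratio of Ptgis to Tbxas1 overlapped between the groups and differed by 0.31 (two-sided exact permutation p = 0.7).

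Ptgir encodes the prostacyclin receptor, the target of selexipag and of the prostacyclin analogues. It had 15.4, 17.2 and 21.9 normalised counts in SuHx A to C, against 14.6, 13.5 and 22.8 in controls 1 to 3. The libraries of both groups lay in the same range of about 13 to 23 reads, with a log2 fold change of 0.115 (SE 0.38, limma adjusted p = 0.907) and a 95% interval of -0.78 to 1.01. Tbxa2r, the thromboxane receptor gene, was under the filter at 9.29, 5.17 and 6.68 normalised counts over SuHx A to C, with 5.60, 6.25 and 14.9 in controls 1 to 3. The log2 ratio of Ptgir to Tbxa2r differed by 0.33 between the groups, which overlapped (two-sided exact permutation p = 0.4).

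**Figure D3:**
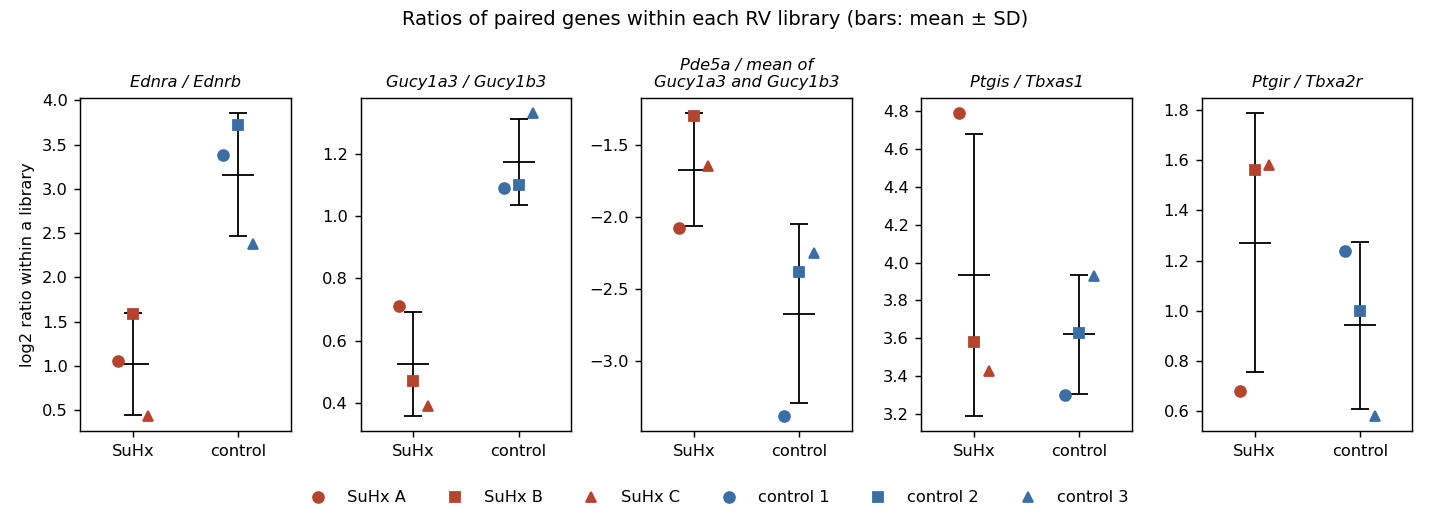
Log2 ratios of paired genes within each library (vertical axis, not from 0), with a point per library for SuHx and control RV and bars for the mean ± SD. The groups are separate for Ednra to Ednrb, Gucy1a3 to Gucy1b3 and Pde5a to the cyclase subunits, and overlap for both prostanoid ratios.

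The 3 members whose groups were separate were also separate when set against the endothelial markers of the same library. Ednrb lay at -2.19, -1.82 and -1.67 log2 units relative to them over SuHx A to C, with -3.1, -3.74 and -3.76 in controls 1 to 3, a difference of 1.64. For Gucy1a3, which in vessels belongs mainly to smooth muscle and pericytes, the difference was -0.82, and for Ptgis it was 0.89 (each with a two-sided exact permutation p = 0.1, the minimum for these numbers, adjusted p = 0.33 over 10 members). Averaged over libraries, the endothelial markers were nearly the same in both groups. These differences therefore nearly repeat the plain log2 fold changes of 1.65 for Ednrb, -0.82 for Gucy1a3 and 0.89 for Ptgis. For Gucy1a3, endothelial markers also do not follow its main cells. Of 10 markers of mural and smooth muscle cells, 8 had a row and summed to between 6420 and 8594 normalised counts in SuHx and between 5067 and 7379 in control. The lowest sum was that of control 3, where Pdgfrb was listed at 0, against 652 and 1132 in controls 1 and 2. Fibroblast markers, all 8 with a row, summed to between 14120 and 16179 normalised counts in SuHx and between 10636 and 18598 in control, and 5 of 8 leukocyte markers to between 491 and 987 in SuHx and between 478 and 738 in control. No gene of these 3 lists passed limma in either direction, and at an unadjusted p under 0.05 there were 1 higher and 0 lower mural, 0 higher and 1 lower fibroblast and 0 leukocyte genes. Long transcripts were higher against ribosomal protein genes in 2 of 3 SuHx libraries than in any control. SuHx A was below controls 1 and 2, but the long transcript Birc6 was listed at 0 there. For 5 of the 9 long transcripts tested, every SuHx library, SuHx A included, was above every control. The part of long transcripts in the 3 differences was not tested.

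Further genes of the endothelin pathway, from a list of 12, had 9 tested. None passed an adjusted p under 0.05 from limma, where 2 were higher and 0 lower by unadjusted p (under 0.05), and the median log2 fold change was 0.215. Those that were higher by unadjusted p act downstream of the receptors. Plcb1, a phospholipase C that such receptors activate through Gq, had 114, 105 and 110 normalised counts in SuHx A to C, against 57.3, 70.7 and 61.9 in controls 1 to 3 (log2 fold change 0.79, SE 0.17, limma adjusted p = 0.0721). Its groups did not overlap, and neither did those of Prkca, a protein kinase C, with a log2 fold change of 1.18 (limma adjusted p = 0.16), which was 0.75 without control 3 (limma adjusted p = 0.0796) and 0.52 without controls 1 and 3 (limma adjusted p = 0.306). Edn2 and Edn3, the genes of the other endothelins, were not analysed here.

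In the nitric oxide and cGMP pathway, 23 further genes of a list of 34 were tested. By limma 0 passed in either direction, with 1 higher and 2 lower by unadjusted p (under 0.05), and the median log2 fold change was 0.18. Nos2, the inducible synthase, was at 17.0 normalised counts in SuHx A and listed at 0 in SuHx B and C, against 48.3, 44.8 and 56.6 in controls 1 to 3 (limma adjusted p = 0.11). It passed at equal library totals (limma adjusted p = 0.0467) and without SuHx A (limma adjusted p = 0.0328), the only SuHx library above 0. An exact 0 in such values can be a failed estimate, so no fold is given. Nos1, the neuronal synthase, had 40.0, 7.15 and 20.1 normalised counts in SuHx A to C, against 16.6, 0.964 and 1.83 in controls 1 to 3, with overlapping groups (limma adjusted p = 0.354). Gchfr, whose product restrains the synthesis of tetrahydrobiopterin, a cofactor of the synthases, had 9.44, 7.83 and 11.4 normalised counts in SuHx A to C, against 28.7, 26.0 and 17.2 in controls 1 to 3. It showed a log2 fold change of -1.22 (SE 0.41, limma adjusted p = 0.189) at no more than about 30 normalised counts. Ddah1, whose product degrades an inhibitor of the synthases and which had the remaining unadjusted p under 0.05, showed a log2 fold change of 0.90 (limma adjusted p = 0.271), with control 1 within the range of SuHx. It passed without control 1, the library with atrial transcripts, at 1.36 (limma adjusted p = 0.0265), and without controls 1 and 3, at 1.38 (limma adjusted p = 0.0483), and it was chosen after its values were seen. Prkg1, the cGMP-dependent kinase gene, was not analysed here.

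Among prostanoid genes, 12 of 20 others were tested, and 0 passed limma in either direction, with 1 higher and 0 lower by unadjusted p (under 0.05) and a median log2 fold change of 0.44. The gene that came closest was Ptgfr, the receptor of prostaglandin F, at 1321, 1445 and 1290 normalised counts over SuHx A to C, with 439, 592 and 188 in controls 1 to 3. All SuHx libraries were above all controls (log2 fold change 1.88, SE 0.385, limma adjusted p = 0.0591), and without control 3 the log2 fold change was 1.404 (limma adjusted p = 0.00941). Ptgds, a prostaglandin D synthase, showed a log2 fold change of 0.86 (limma adjusted p = 0.309) with SuHx B inside the range of the controls. The cyclooxygenase genes overlapped between the groups, with log2 fold changes of 0.66 for Ptgs1 (adjusted p = 0.387) and 1.06 for Ptgs2 (adjusted p = 0.536, both from limma), and Ptgs2 ranged from 62.7 to 122 normalised counts in SuHx and from 11.5 to 135 in control. The log2 fold change of Ptgs2 was 1.93 without control 1 (limma adjusted p = 0.162), 0.21 without control 2 (limma adjusted p = 0.877) and 2.75 without controls 1 and 3 (limma adjusted p = 0.065).

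**Figure D4:**
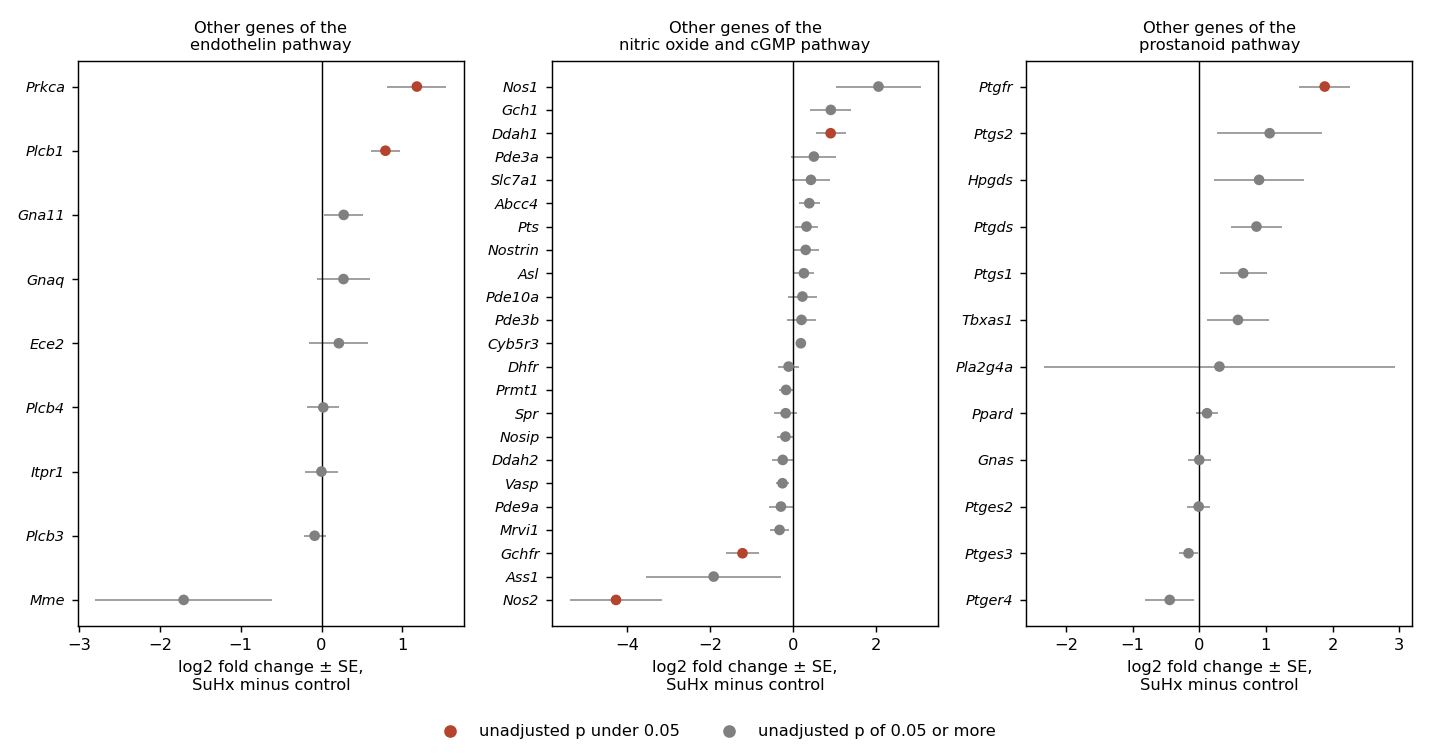
Log2 fold change of (normalised count + 1), SuHx minus control, with its standard error (horizontal axis) of the other tested genes of each pathway, 9, 23 and 12 genes from left to right. Darker red points had an unadjusted p under 0.05, and no gene shown passed an adjusted p under 0.05 from limma.

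The member with the smallest p was Ednrb, and its pattern over the 6 libraries was compared with that of 8123 genes that averaged 50 or more normalised counts. The most alike were Ctsl, a lysosomal cathepsin (Pearson r = 0.988), Smarcc1, a subunit of a chromatin remodelling complex (r = 0.987), and Ninj1, a membrane protein (r = 0.987). With only 6 libraries that share their grouping, 46 genes had an r above 0.95, so the order among them is a description. Smarcc1 had 61.0, 92.8 and 111 normalised counts in SuHx A to C, against 33.7, 26.0 and 34.7 in controls 1 to 3. Ctsl, Smarcc1 and Ninj1 each had the same order of the SuHx libraries as Ednrb, which their choice by correlation favours.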

How the data were processed

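RNA from 6 RV libraries was sequenced by the authors, who counted reads using Salmon (version 0.14.1), by their methods against a mouse index (GRCm38.p6), and normalised with DESeq2 (version 1.24.0). The deposited values are a normalised signal per gene, not whole counts. Of values below 12, 92.0% to 96.8% per library lay within 0.1 of a multiple of the commonest step, which was too few to recover reads, and count models were left out. The depth in reads is therefore approximate. An entry with no gene name, 0.00143% to 0.00514% of a library, was left out.

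Log2(value + 1) was fitted for the 10725 genes that averaged 10 or more. This used limma 3.58.1 (R 4.3.3), with a mean-variance trend and Benjamini-Hochberg adjustment over all of them. Single values were compared by exact permutation in scipy 1.17.1. The fit was tested on simulated data. Alternatives covered pseudocount, filter, scaling, moderation and each library left out, and leaving out controls 1 and 3 together was added after seeing the data. Members and lists were chosen with earlier results of these data known. Named were all members, per pathway list the called genes or else the 2 of smallest p, and fixed partner genes. Names were matched to RefSeq on GRCr8, which supplied promoters for 9 members. The 4 lung epithelial markers with values were under the filter, and of 3 red cell markers limma called 0, with 1 at an unadjusted p under 0.05.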

Additional observations from a re-analysis of the deposited data

How the results depend on the processing

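No paired analysis was possible because the SuHx columns carry no replicate numbers of the labels. No pairing of control and SuHx rats is described either, and a shared replicate number would not by itself make a pair. The groups were therefore compared as independent. Over all genes, 238 were called, 121 with no mean-variance trend, 105 without controls 1 and 3 together, and 17 to 402 with single libraries left out. Of the members 2 were called, 1 with no filter on low values or at equal totals, 0 at equal totals without mitochondrial transcripts, with no trend or without controls 1 and 3 together, and 0 to 3 with single libraries left out. Ednrb did not pass at equal totals (log2 fold change 1.33), at equal totals without mitochondrial transcripts (1.52), with no trend (1.65) or without controls 1 and 3 (2.08), and ran from 1.43 to 1.82 with single libraries left out. Gucy1a3 did not pass with no filter or no trend (-0.82 each), at equal totals without mitochondrial transcripts (-0.945, limma adjusted p = 0.0503) or without controls 1 and 3 (-0.613), and ran from -0.92 to -0.74. Ptgis passed with the filter raised to 50 and under robust moderation (0.89 each), and ran from 0.81 to 1.03. The sign turned for Edn1 without control 2 (-0.043), for Ece1 without control 3 (-0.628) and without controls 1 and 3 (-0.49), for Nos3 without SuHx B (0.080), without control 3 (0.281) and without controls 1 and 3 (0.163), and for Ptgir at equal totals (-0.186), at equal totals without mitochondrial transcripts (-0.007) and without SuHx C or control 2 (-0.021 each), none of which passed limma. The cause of these changes was not tested in any setting. With single libraries left out, 4 members ended between -0.043 and 0.931 (Edn1), -0.628 and 0.91 (Ece1), -0.249 and 0.281 (Nos3) and -0.021 and 0.336 (Ptgir). The ratio of Ptgis to Tbxas1 (-0.117 to 0.561) and, relative to endothelial markers, Ece1 (-0.899 to 1.06), Nos3 (-0.194 to 0.077) and Gucy1b3 (-0.443 to 0.051) also took both signs with single libraries left out, and the other ratios and relative values kept theirs. At equal totals the split of all called genes was 90 higher and 191 lower, against 166 and 72. Edn1 rested on about 4 to 25 reads and Ptgir on 13 to 23 per library, and the part of depth in their intervals was not tested.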

Other observations

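Of the genes of the lists that were lowest in control 3, 3 are given here, singled out after their values were seen. Further listed genes, among them Ptgfr, Prkca, Ryr2 and Utrn, were also lowest in control 3. Others, such as Tie1, Egfl7 and Esam, were highest there. Ece1 was at 89.3 normalised counts in control 3 and between 333 and 761 in the others. Pde3a, a cGMP-inhibited phosphodiesterase of heart and vessel muscle, was at 204 normalised counts in control 3, against 737, 865 and 738 over SuHx A to C, with 922 and 885 in controls 1 and 2. Pdgfrb, the pericyte receptor for platelet-derived growth factor, was listed at 0 in control 3, against 795, 1121 and 671 over SuHx A to C, with 652 and 1132 in controls 1 and 2.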
